A study of Mus musculus with 2 samples.

Results

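The core circadian clock genes were followed in the adrenal gland of juvenile mice as 10 genes chosen by name: the activators Arntl, Clock and Npas2, the repressors Per1, Per2, Per3, Cry1, Cry2 and Ciart, and the output transcription factor Dbp. All 10 were found by symbol among 55536 annotated genes, and 9 of them reached 1 TPM in both libraries. TPM, a relative transcript abundance, is corrected for transcript length. The mice were female B6CASTF1/J hybrids aged 25 days, with no treatment named in the labels. Total RNA was sequenced in 2 libraries of 1 group, replicate 2 and replicate 1, each started from 300 ng of RNA. The design holds no contrast between conditions, so the data describe how strongly the gland expressed its clock genes and how far the libraries lay apart in them. The sources used here do not give the hour of dissection.

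The libraries differed in depth and in what they held beside adrenal messenger RNA. Expected counts, the estimated reads per gene, came to 33728646 for replicate 2 and 19366343 for replicate 1. Protein-coding genes of the nucleus took 66.1% and 36.4% of them, leaving out Lars2, which stood at 22.4 TPM in replicate 2 but 8896 in replicate 1. The labels name separate animals in the tissue descriptions but 1 donor and 1 library description for both, so the spread between the libraries may be technical. Their coding genes differed by 14.5 times the degrees of freedom in a chi-square test over 14788 genes, so they were not the same library deposited again. Levels of markers of the gland and of other cell types are given in coding TPM. It is TPM rescaled to the same sum in each library over those coding genes, so that other RNA classes do not enter it. Whether a marker was higher or lower was read from the ratio of scaled counts described below, which can differ in sign from coding TPM. All 6 liver genes were lower in replicate 2, where they summed to 11.4 coding TPM against 959 in replicate 1, and ranged from 0.0591 to 10.3 against 17.8 to 683. The 5 adipocyte genes were all lower in replicate 2 (2761 against 3648 summed coding TPM). Of the 5 chromaffin genes 4 were higher in replicate 2 (3366 against 2987), as were 2 of 5 cortex genes (42684 against 38355) and 3 of 4 endothelial genes (396 against 386). The 4 kidney genes summed to 0.828 and 1.06 coding TPM, with 2 of them at 0 counts in each library. The clock genes are active in most of these tissues, and the part of other cell types in the results below was not tested. In bulk tissue fewer cells of a type and less RNA per cell cannot be told apart.

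The mammalian clock is a loop of transcription and translation that runs in nearly every cell. ARNTL, also called BMAL1, pairs with CLOCK or with its paralog NPAS2 and switches on genes that carry E-box sequences, among them the Per and Cry genes, whose proteins return to the nucleus and hold the activator pair back. A further loop of nuclear receptors, the REV-ERB repressors and the ROR activators, acts on Arntl. In rhythmic mouse tissues Arntl and Npas2 RNA peaks at a time of day when Dbp and Per3 RNA is low. The part of time of day in the results below was not tested. The adrenal cortex has a clock of this kind, which works together with the daily release of corticotropin in setting the rhythm of glucocorticoid secretion.

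Promoter windows are shown for the 4 repressor genes that held an E-box CACGTG or a D-box, to place the members in that loop. The windows cover 250 bases before to 50 bases after an annotated start, are taken from RefSeq on build GRCm38.p6, and were available for 9 of the 10 genes. The motifs searched on both strands were the E-box CACGTG, the related E-prime-box CACGTT, the cyclic AMP response element TGACGTCA and the D-box TTATGTAA, to which DBP and its relatives bind. Motifs are in capitals and all else is in lower case, written 5′ to 3′ along the gene. Per3 (chr4:151044616-151044915, minus strand) held 2 D-boxes, Ciart (chr3:95882179-95882478, minus strand) 3 E-boxes, Cry1 (chr10:85185005-85185304, minus strand) an E-prime-box on the other strand followed by an E-box, and Per1 (chr11:69098699-69098998, plus strand, the first of its windows) an E-box.
Per3: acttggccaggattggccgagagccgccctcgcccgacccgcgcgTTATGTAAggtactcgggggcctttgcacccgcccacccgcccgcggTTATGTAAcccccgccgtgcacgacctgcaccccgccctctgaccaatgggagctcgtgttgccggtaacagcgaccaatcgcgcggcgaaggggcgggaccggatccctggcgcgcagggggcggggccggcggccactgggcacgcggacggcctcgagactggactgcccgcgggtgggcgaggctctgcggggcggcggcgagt
Ciart: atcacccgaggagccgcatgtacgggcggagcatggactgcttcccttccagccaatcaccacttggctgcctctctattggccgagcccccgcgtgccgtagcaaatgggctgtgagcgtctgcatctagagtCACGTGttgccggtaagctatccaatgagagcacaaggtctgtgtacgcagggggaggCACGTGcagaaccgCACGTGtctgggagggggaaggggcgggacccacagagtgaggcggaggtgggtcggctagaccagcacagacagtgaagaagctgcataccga
Cry1: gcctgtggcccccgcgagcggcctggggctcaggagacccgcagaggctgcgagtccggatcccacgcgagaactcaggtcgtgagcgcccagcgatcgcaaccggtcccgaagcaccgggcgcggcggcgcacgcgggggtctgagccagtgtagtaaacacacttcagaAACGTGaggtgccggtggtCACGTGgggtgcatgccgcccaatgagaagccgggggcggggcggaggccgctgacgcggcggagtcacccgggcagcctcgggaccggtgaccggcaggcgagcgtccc
Per1: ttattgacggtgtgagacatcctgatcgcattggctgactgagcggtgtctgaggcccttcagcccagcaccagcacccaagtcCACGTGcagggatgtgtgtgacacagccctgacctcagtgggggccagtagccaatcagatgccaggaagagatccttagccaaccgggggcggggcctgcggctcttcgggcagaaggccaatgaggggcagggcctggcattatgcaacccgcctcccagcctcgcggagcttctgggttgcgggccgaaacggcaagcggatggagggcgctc

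The 2 D-boxes of Per3 began 205 and 158 bases before its start. The E-boxes of Ciart began 116, 58 and 44 bases before its start, that of Cry1 60 bases and that of Per1 166 bases. Over all 32851 windows of the table, 7.15% held the E-box, 4.68% the E-prime-box, 1.79% the cyclic AMP response element and 0.938% the D-box. Among the members the E-box was in 3 genes of 9 and the E-prime-box in 2, Cry1 and Cry2. The D-box was in 1, and the cyclic AMP response element in 0. Members were counted by gene, with a hit in any window, and the shares above are by window, so their basis differs. Of 28 other clock genes, also counted by gene, 3 held the E-box, 5 the E-prime-box, 1 the cyclic AMP response element and 1 the D-box. The windows of Arntl, Clock, Npas2 and Dbp held none of these letters. A match describes the sequence and does not show that a factor binds there.

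The members spanned a wide range of levels, led by Dbp. Dbp reached 146 TPM in replicate 2, against 59.3 TPM in replicate 1 (103 ± 61.4, SD, n = 2), above 98.1% and 96.4% of the coding genes with any TPM in those libraries. Per1 followed at 27.9 and 14.0 TPM (20.9 ± 9.84). Per3, Cry2, Clock and Per2 formed a middle group with means between 10.1 and 12.3 TPM, whose ranges overlapped, and Per3 ranked 3 of 10 in replicate 2 but 6 of 10 in replicate 1. Cry1, Arntl and Ciart formed a low group with means of 2.38, 2.35 and 2.20 TPM, again with overlapping ranges. Npas2 was lowest at 0.33 and 0.53 TPM, above 18.0% and 21.5% of the coding genes. Deposited TPM separated Dbp from all others, the middle group from the low group and the low group from Npas2. Per1 did not overlap the middle group in coding TPM (82.5 in replicate 2 and 67.6 in replicate 1), but did in deposited TPM.

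**Figure D1:**
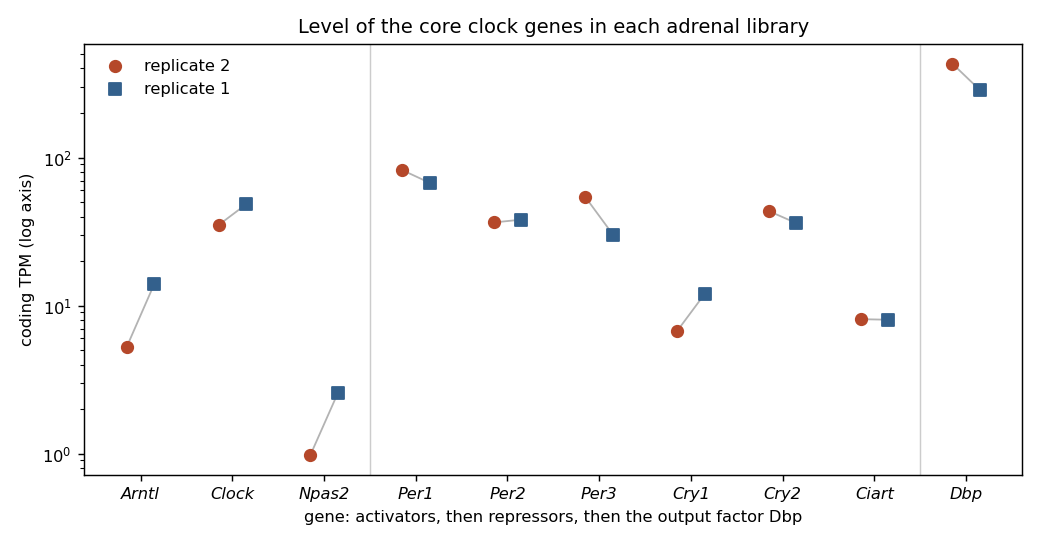
Level of each core clock gene in coding TPM on a log axis, with replicate 2 as red circles and replicate 1 as blue squares, joined by a line for each gene. Dbp lies at 432 and 287 coding TPM and Npas2 at 0.976 and 2.56. The points of the 3 activators and of the repressors Per2 and Cry1 lie lower for replicate 2 on this scale.

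Differences between the libraries are given as log2 of replicate 2 over replicate 1, from counts scaled by TMM, a factor that assumes most genes are alike in both libraries. Intervals are exact 95% intervals of counting error. Calls come from an exact binomial test, adjusted by Benjamini-Hochberg over the 11542 genes whose mean count reached 100. It weighs a difference only against counting error, and 1 library on each side gives no replicate check. The middle of all tested genes lay at 0.00, with a median absolute log2 ratio of 0.16.

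Of the 3 activator genes, Arntl and Clock were called lower in replicate 2, and Npas2 had too few counts for the test. Arntl, which encodes the activator subunit shared by both pairs, lies on chromosome 7 (113207465 to 113314126, plus strand, mm10). It had 158 counts in replicate 2 and 137 in replicate 1, although replicate 2 held far more coding reads, which is 5.29 against 14.1 coding TPM. Its log2 ratio was -1.49 (-1.84 to -1.16), so that its scaled count was 2.82-fold lower in replicate 2. The adjusted binomial p was 2.68e-16, and 0.529% of all tested genes had a ratio as low. Clock (chromosome 5, 76209868 to 76304792, minus strand), the bHLH-PAS partner of ARNTL, had 2663 and 1136 counts, or 35.0 and 48.4 coding TPM. Its log2 ratio was -0.48 (-0.58 to -0.38), a smaller difference than that of Arntl, with intervals that did not overlap. The direction of Clock rests on the scale, since its deposited TPM was 11.85 in replicate 2 and 10.0 in replicate 1, and total-count scaling gave a log2 ratio of 0.43 (adjusted binomial p 1.17e-17). Npas2 (chromosome 1, 39193731 to 39363236, plus strand), the paralog of Clock, had 24 and 16 counts, or 0.976 and 2.56 coding TPM. Its log2 ratio of -1.08 has a wide counting interval (-2.10 to -0.11), and its mean count was under the minimum for the test. At a minimum of 10 counts it was tested and not called, with an adjusted binomial p of 0.0974.

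The Period genes, which encode the repressors that bring the complex into the nucleus, did not move as a group. Per3 (chromosome 4, 151003652 to 151044665, minus strand) had 2741 counts in replicate 2 and 513 in replicate 1, or 54.0 and 30.2 coding TPM. Its log2 ratio of 0.71 (0.57 to 0.85) made it 1.64-fold higher in replicate 2, with an adjusted binomial p of 1.83e-25, and 1.46% of all tested genes had a ratio as high. Per2 (chromosome 1, 91415982 to 91459324, minus strand) had 2223 and 740 counts, or 36.5 and 38.1 coding TPM, and was not called (log2 ratio -0.12, -0.24 to 0.00, adjusted binomial p 0.124). Per1 (chromosome 11, 69095217 to 69109960, plus strand), which in mouse is also induced by glucocorticoids and by cyclic AMP, had 2820 and 978 counts. Its scaled counts were called lower in replicate 2 at a small size (log2 ratio -0.18, -0.29 to -0.07, adjusted binomial p 0.00443), a call that was lost on the spike-in scale (-0.026, adjusted binomial p 0.725). Its coding TPM ran the other way in the gene tables, at 82.5 in replicate 2 and 67.6 in replicate 1. In the second quantification it did not, at 54.5 in replicate 2 and 58.4 in replicate 1. The libraries thus did not give Per1 a direction that held on every scale.

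The Cryptochrome genes, whose proteins are main repressors of CLOCK and ARNTL, lay on opposite sides of 0. Cry1 (chromosome 10, 85131700 to 85185064, minus strand) had 173 counts in replicate 2 and 86 in replicate 1, or 6.74 and 11.99 coding TPM. It was called lower in replicate 2 with a log2 ratio of -0.69 (-1.08 to -0.31) and an adjusted binomial p of 0.00236. Cry2 (chromosome 2, 92403646 to 92434043, minus strand) had 1554 and 420 counts, or 43.5 and 36.1 coding TPM. Its log2 ratio of 0.18 (0.02 to 0.34) did not pass the test (adjusted binomial p 0.0673), but it did in the second quantification (adjusted p 0.0356), in coding-count scaling (0.0173) and on the spike-in scale (0.000108). Ciart (chromosome 3, 95878503 to 95882251, minus strand), a rhythmically expressed repressor also called Chrono, had 76 and 31 counts, or 8.10 and 8.03 coding TPM. Its log2 ratio was -0.41 (-1.03 to 0.24), and no difference was detectable at this depth.

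Dbp (chromosome 7, 45705088 to 45710203, plus strand), a PAR bZIP activator of output genes and a direct target of CLOCK and ARNTL, had 7053 counts in replicate 2 and 1377 in replicate 1, or 432 and 287 coding TPM. It was 1.57-fold higher in replicate 2, with a log2 ratio of 0.65 (0.57 to 0.73) and an adjusted binomial p of 7.72e-56. Of all tested genes 1.88% had a ratio as high. The members that were higher and called were thus Dbp and Per3.

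**Figure D2:**
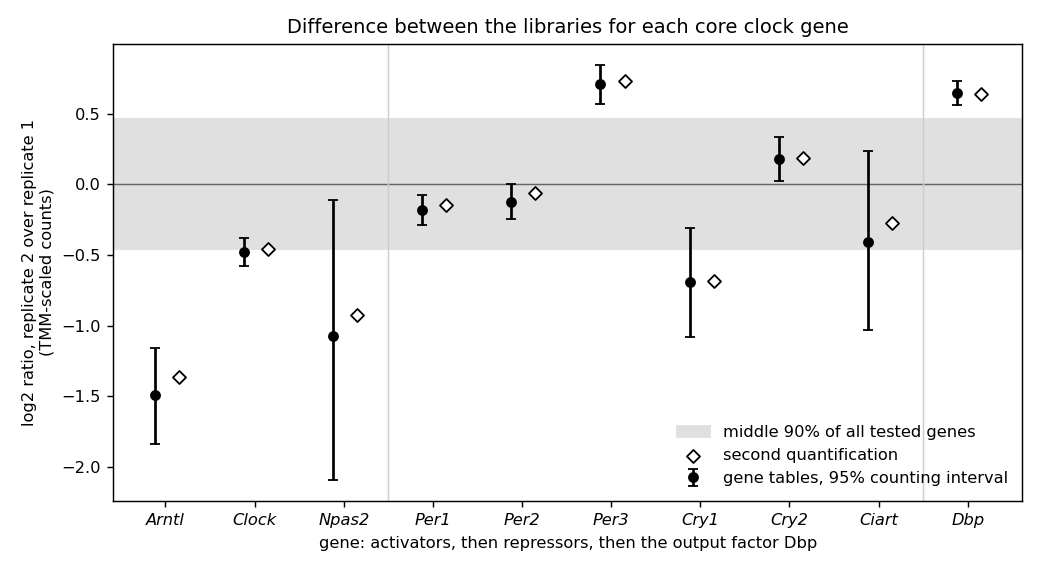
Log2 ratio of replicate 2 over replicate 1 for each core clock gene, as black circles with exact 95% counting intervals for the gene tables and open diamonds for the second quantification. The grey band holds the middle 90% of all 11542 tested genes (-0.46 to 0.46). The circles of Arntl, Clock, Npas2 and Cry1 fall below it, and those of Per3 and Dbp lie above it. The intervals of Clock, Npas2 and Cry1 reach into the band, and Npas2 had too few counts for the test.

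Of the 8 members with enough counts to be tested, 2 were called higher in replicate 2 (Per3 and Dbp), where 15.1% of all tested genes were, and 4 were called lower (Arntl, Clock, Per1 and Cry1), where 18.0% of all were. At 2-fold or more in either direction stood 1 member, Arntl, against 1.30% of all tested genes. Over all 10 members the median log2 ratio was -0.29, with 3 above 0 and 7 below. Relative to the median of all tested genes the same 3 members, Per3, Dbp and Cry2, lay above and the other 7 below under every scaling tried, which moves all genes together, and in the second quantification. The absolute split moved with the scale, because total counts put the median of all genes at 0.91 and spike-ins at 0.16. On total counts 6 members were called higher and 1 lower, against 97.6% and 0.806% of all genes, and that 1 was Arntl (-0.59). On the spike-in scale 3 were called higher and 3 lower, against 38.4% and 7.68%.

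Ratios of members to each other within a library need no scaling between libraries. In counts they restate the differences between the log2 ratios above and give no further support to them. Dbp exceeded Arntl by 81.6 times in replicate 2 and 20.4 times in replicate 1, in TPM. The corresponding ratio of counts was 4.44 times larger in replicate 2 (95% counting interval 3.48 to 5.66). Cry2 exceeded Cry1 by 6.46 times in replicate 2 and 3.01 times in replicate 1, a ratio of counts 1.84 times larger in replicate 2 (1.37 to 2.45). Per2 stood at 0.675 of Per3 in replicate 2 and at 1.26 of it in replicate 1, so the order of these 2 paralogs was not the same in both libraries (0.562 times in counts, 0.495 to 0.639). Arntl stood at 0.151 of Clock in replicate 2 and at 0.291 in replicate 1 (0.492 times, 0.385 to 0.630). Ciart over Arntl was 1.53 and 0.570 (2.12 times, 1.29 to 3.55). The ratio of Per1 to Per2 counts did not differ beyond counting error (0.960 times, 0.858 to 1.07), nor did that of Clock to Npas2, with its few counts (1.56 times, 0.773 to 3.08).

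The posterior SD that the authors deposited beside each count was 0 in both libraries for 9 of the 10 genes, and 0.24 and 0.58 counts for Ciart. The annotation places other genes over some members. Sphk2 overlaps Dbp on the opposite strand and had 1294 and 395 counts, and Camta1 overlaps Per3 on the same strand with 371 and 95 counts. Clock encloses the pseudogene Ube2n-ps1 (473 and 117 counts) and Gm43658 (68 and 21 counts) on its own strand. The kit was directional per the labels' protocols, and the strand setting used in counting is not stated there.

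Total RNA also carries partly spliced transcripts, and the members differed in how much of their TPM fell on them. Per3 had 32.0% of its TPM in replicate 2 and 25.8% in replicate 1 on 2 retained-intron transcripts in the first transcript table, and 32.8% and 31.1% in the second. Its coding transcript Per3-201 held 56.0% and 61.8%. Dbp had 13.6% and 14.7% on retained-intron transcripts, with 17.9% and 18.4% in the second table, and Clock 15.6% and 16.2%, with 13.4% and 11.8%. Arntl had 7.82% and 9.28%. Per2 had all of its TPM on the coding transcript Per2-201 in both libraries and both tables. In coding TPM the coding transcript Per3-201 stood at 30.3 in replicate 2 and 18.7 in replicate 1. The retained-intron transcripts Per3-202 and Per3-205 stood at 10.3 and 7.04 coding TPM in replicate 2, against 3.82 and 3.96 in replicate 1. In deposited TPM these gaps are wider, since the coding genes together summed to 338304 TPM in replicate 2 and 206815 in replicate 1.

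The split of Per1 over its transcripts differed between the tables. In the first table the short transcript Per1-204, of 496 bases, held 28.5% of Per1 TPM in replicate 2 (7.96 TPM from 99.4 counts) and 0 in replicate 1, while Per1-203 held 0 in replicate 2 and 24.2% in replicate 1. The second table gave both transcripts about 0 counts in either library and put 75.9% and 72.6% on Per1-201. In deposited TPM the tables gave Per1 like gaps, with 27.9 in replicate 2 against 14.0 in replicate 1 in the first and 33.6 against 17.05 in the second. In coding TPM they gave 82.5 against 67.6 in the first and 54.5 against 58.4 in the second. The leading transcript of Clock also differed, being Clock-205 in the first table (43.8% and 35.5%) and Clock-201 in the second (38.8% and 49.7%). Dbp-201, Cry2-201 and Arntl-201 led in both tables and both libraries.

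**Figure D3:**
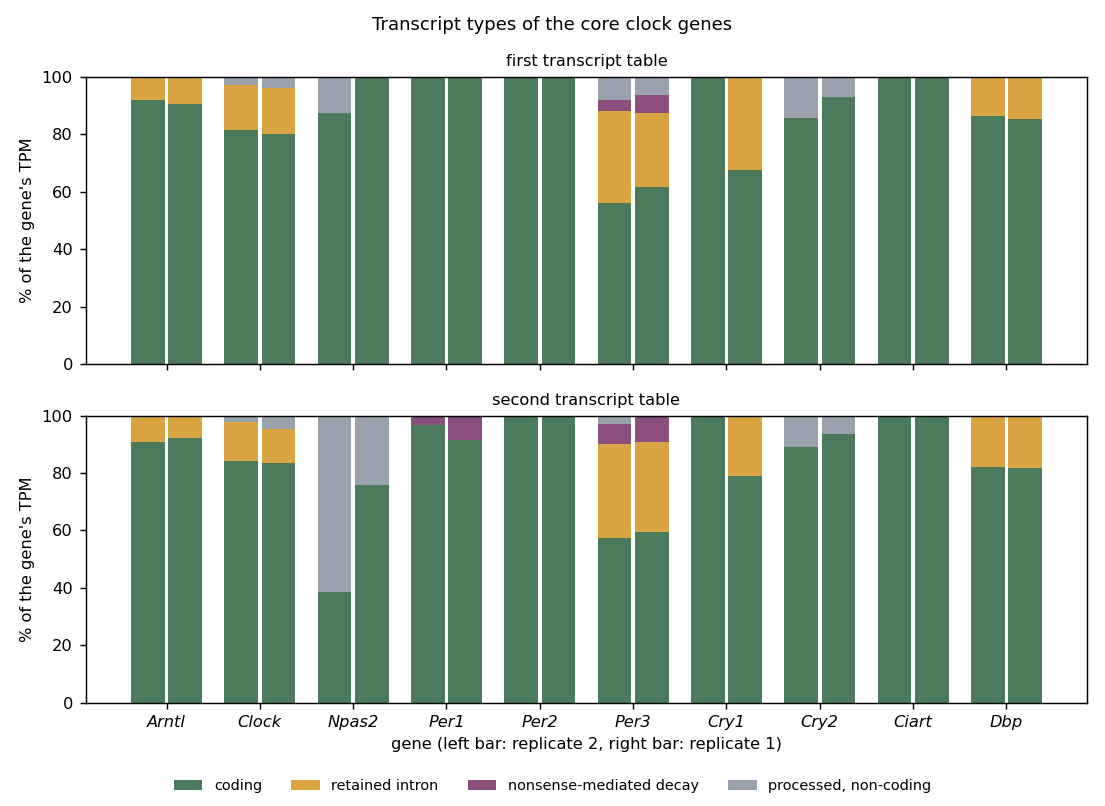
Percent of each gene's TPM on coding, retained-intron, nonsense-mediated decay and other processed transcripts, with replicate 2 as the left bar and replicate 1 as the right bar of each gene, in the first transcript table (upper panel) and the second (lower panel). Retained-intron transcripts hold 32.0% and 25.8% of Per3 in the upper panel, and the bars of Npas2 and the retained-intron part of Cry1 rest on few counts.

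Other genes of the clock were set beside the members from lists of 36 genes. Of the 33 with enough counts, 7 were called higher and 8 lower in replicate 2, which is 21.2% and 24.2% of them against 15.1% and 18.0% of all tested genes. The median log2 ratio of all 36 was 0.07. In the second quantification 9 were called higher and 6 lower, against 16.6% and 17.4% of all genes. The lists below hold too few genes for a share to be read against these backgrounds. In the nuclear receptor loop 2 of 4 tested genes were called higher and 1 lower, all at small size, and in the second quantification 3 were called higher and 0 lower. Nr1d1, which encodes the repressor REV-ERB-alpha of Arntl, was abundant at 232 coding TPM in replicate 2 and 238 in replicate 1 (log2 ratio -0.09, -0.17 to -0.02), a call that the second quantification did not give (adjusted binomial p 0.148). Nr1d2, its paralog, was at 122 and 99.8 coding TPM (0.16, 0.08 to 0.25), and the activator Rora at 111 and 92.2 (0.11). Rorb was under 1 TPM in both libraries. Nr1d1 exceeded Arntl by 43.8 times in replicate 2 and 16.9 times in replicate 1 in TPM, a ratio of counts 2.65 times larger in replicate 2 (2.08 to 3.38).

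Among the relatives of Dbp the directions parted. Tef, a PAR bZIP activator like Dbp, was called higher in replicate 2 at 142 coding TPM against 113 in replicate 1 (log2 ratio 0.27, 0.18 to 0.36, adjusted binomial p 4.47e-08). Nfil3, a repressor that competes for the same D-box, was called lower at 11.3 against 18.7 coding TPM (-0.78, -1.11 to -0.46, adjusted binomial p 2.64e-05). Hlf was not called, at 17.4 and 23.2 coding TPM (-0.04). Of the E-box repressors, Bhlhe41 was called higher (0.33, adjusted binomial p 0.0487) and Bhlhe40, the more abundant at 195 and 194 coding TPM, was not called (0.02). Timeless was called higher (0.39, adjusted binomial p 0.0355) but not in the second quantification (0.31, adjusted binomial p 0.0799), where its coding TPM was 22.7 in replicate 2 and 30.7 in replicate 1. Arntl2, the scarce paralog of Arntl at 1.15 and 1.25 TPM, had too few counts for the test (73 and 20).

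Among genes that modify clock proteins, 1 of 5 kinase genes was called, Gsk3b, higher at a log2 ratio of 0.12, where 15.1% of all tested genes were called higher, and the most abundant, Csnk1a1 and Csnk1d, which encode casein kinases that phosphorylate PER, were at 0.00 and 0.10 and not called. The second quantification also called Csnk1d higher (0.16, adjusted binomial p 0.00164). None of the 4 tested ubiquitin-pathway genes was called. Among them Fbxw11 stood at 110 coding TPM in replicate 2 and 89.1 in replicate 1 (0.04). Fbxl21, of the same list, had too few counts for the test (98 in replicate 2 and 15 in replicate 1) and the highest log2 ratio of the 36 genes, 0.98 (0.21 to 1.89). Of 8 cofactor genes 1 was called higher and 3 lower, against 15.1% and 18.0% of all tested genes, with log2 ratios within 0.15 of 0. The second quantification called 2 higher, Ep300 (adjusted binomial p 0.00138) and Kat2b (0.0153), and 2 lower, without Nono (0.081). Ncor1, a corepressor used by REV-ERB-alpha, stood at 234 and 272 coding TPM (-0.15), and Nono at 213 and 225 (-0.12). Of 6 output genes 3 were called lower and 0 higher, against 18.0% and 15.1% of all tested genes, and the second quantification gave the same counts. Noct, a rhythmic phosphatase of NADP and NADPH, had 356 counts in replicate 2 and 288 in replicate 1 (log2 ratio -1.40, -1.63 to -1.17). The second quantification gave it 3118 and 1224 counts and a log2 ratio of -0.32, so its counts and the size of its ratio differed between the quantifications. Por, at 268 and 262 coding TPM (-0.07), and Nampt, at 96.1 and 96.8 (-0.21), were the most abundant, and Nampt was called lower. Tsku, also called lower, was at -0.85 (22.3 and 41.2 coding TPM) and is named here for its value.

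**Figure D4:**
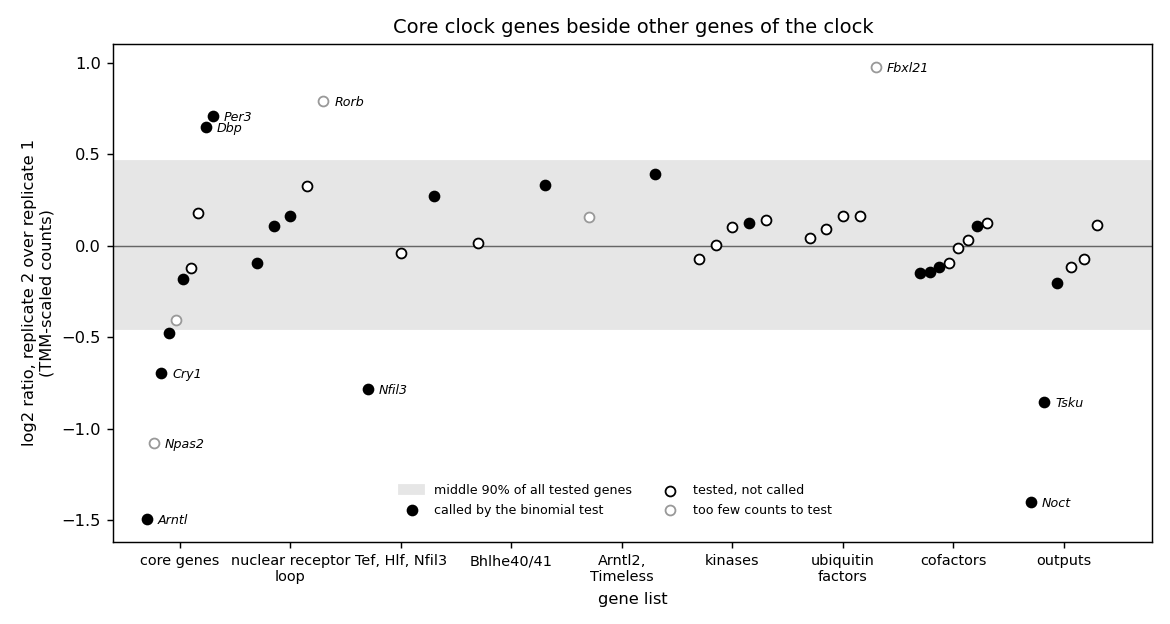
Log2 ratio of replicate 2 over replicate 1 for the 10 core genes and 36 other clock genes by list. Filled circles were called by the binomial test, open black circles were tested and not called, open grey circles had too few counts, and the grey band holds the middle 90% of all tested genes. Arntl and Noct lie lowest, near -1.5 and -1.4, and the kinases and cofactors stay inside the band. The second quantification, which is not drawn, gave Noct -0.32.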

How the data were processed

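The authors deposited 3 tables per library. A gene table and its transcript table, made by the authors from a transcriptome alignment, hold expected counts, TPM, posterior SDs and each transcript's percent of its gene. A second transcript table, made straight from the reads, holds estimated counts and TPM. Build mm10 and annotation GENCODE M21 are stated in notes deposited with these tables, and programs were not given in the sources used here. TPM as deposited is scaled over all entries, including 26248 tRNA and 96 ERCC spike-in entries.

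Symbols were read from the second transcript table, which was also summed per gene as an alternative. Counts were rounded, those summing to 10 or more over both libraries were scaled by TMM (edgeR 4.0.16, R 4.3.3), and ratios used a prior of 1 count. The exact conditional binomial test, adjusted by Benjamini-Hochberg at 0.05, took genes whose mean count reached 100. Its p-values and the Clopper-Pearson and odds-ratio intervals cover counting error only, since 1 library on each side gives no estimate of the spread between libraries. Reads counted without molecular identifiers may also repeat a molecule, which the intervals do not take in. No group contrast, and so no quasi-likelihood fit, was possible. Alternatives were DESeq2 1.42.0 size factors, total, spike-in and coding counts, the second quantification, priors of 0.5 and 5, and minimums of 10 and 0. The test was checked on simulated counts that differed by counting error alone, apart from 200 changed genes. That check does not cover the further differences between these libraries. Python 3.11.15, numpy 2.4.6, scipy 1.17.1, pandas 2.3.3 and matplotlib 3.10.9 were used. All members were named. Of the other clock lists, those past 2-fold, those under 1 TPM in both libraries and the 2 highest of each list were to be named, and further genes were named after their values were seen. A gene that this rule names is not reported here. The members and lists were chosen with earlier results of these data known.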

Additional observations from a re-analysis of the deposited data

How the results depend on the processing

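The count minimums leave the ratios as they are, so they are not counted here. Over the other 7 alternatives the direction of the 10 member ratios held in 64 of 70 combinations. In 59 of them no call changed either. The 59 include combinations of Npas2 and Ciart, which had too few counts for the test under these alternatives. For these 2 genes there was no call to compare, so the 59 is not a count of tests on the same side of the threshold. The 6 reversals came from the scale, and Cry2 was called under 4 alternatives, the second quantification among them. Total-count scaling moved the median of the members to 0.61, and gave 6 members called higher, 1 called lower and 3 past 2-fold, with 11266 genes called higher, 93 lower and 4168 past 2-fold over all genes. It reversed Clock (0.43), Per1 (0.73), Per2 (0.79), Cry1 (0.21, adjusted binomial p 0.294) and Ciart (0.49). Spike-in scaling turned Per2 to 0.033 and called 4432 genes higher and 886 lower. Both scalings move all genes by a constant, so members kept their place relative to the median. With a minimum mean count of 10, 2 members (Arntl and Npas2) and 924 genes were past 2-fold, and with no minimum 2 members and 4954 genes, since more genes of low count entered. Leaving out a library leaves no ratio, only the level in the other library. No paired analysis was possible because there is 1 group. Low counts limit Npas2 and Ciart, which were not called at any minimum.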
